A study of Mus musculus with 4 samples.

Results

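SNARE proteins are the engine of vesicle fusion, and the genes described here are the mouse genes that encode them and the proteins that bind syntaxins. They were chosen by symbol from the protein-coding genes of a RefSeq gene table on mm10: syntaxins (Stx plus a digit), syntaxin-binding proteins (Stxbp), VAMPs (Vamp plus a digit), SNAP proteins (Snap plus a digit), Vti1, Gosr, Bet1 and Sec22 genes, Ykt6 and Use1. The rule took 46 of 21883 protein-coding genes on the autosomes, X and Y. The table placed Vamp7 at position 10737 to 39191 of X, ahead of the first peak of any list on these chromosomes. Vamp7 was therefore not scored, and 45 members remained. Of these, 8 make proteins known from synaptic vesicle release and are called neuronal (among them Stx1a, Snap25, Vamp1, Vamp2, Stxbp5l and Snap91), and the other 37 are called general. A name rule also takes genes that are not SNAREs: the Stxbp genes encode regulators, and Snap91 encodes the clathrin assembly protein AP180.

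SNAREs sit on vesicles and on target membranes, and their helices zip into a bundle that pulls the membranes together. Syntaxins and SNAP proteins usually mark the target membrane and VAMPs the vesicle, while Sec1/Munc18 proteins such as Stxbp2 and Stxbp3 chaperone the syntaxins. In the renal collecting duct, vasopressin raises water permeability by driving vesicles with the water channel aquaporin-2 into the apical membrane, a step in which Vamp2, Snap23, syntaxin 3, syntaxin 4 and Stxbp2 have been studied.

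The cells were mpkCCD clone 11, a line from mouse cortical collecting duct, at passages 8 to 10. Confluent layers on permeable supports were switched to medium lacking serum and hormones. All 4 libraries were made that way, and 2 of them came from cells given dDAVP at 0.1 nM, an analog of vasopressin that selects the V2 receptor, and 2 from cells given its vehicle, each for 30 minutes. Accessible chromatin was profiled by ATAC-seq, in which a transposase inserts adapters into exposed DNA, with 50000 cells per library. The labels do not say whether libraries came from separate cultures, so p-values measure only the spread between these libraries, which may be technical. A line of 1 clone limits what the values say of other cells.

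Each library came as a list of called peaks with positions and no height, summit or read count, so a gene could be scored only by whether a peak was present, where it lay and how wide it was. The depth behind each list is unknown. In the order used throughout (vehicle 1, vehicle 2, dDAVP 1, dDAVP 2), the lists held 393956, 206972, 291454 and 205771 peaks. The list of vehicle 1 stood apart as the longest. The gene-end counts of members, their region medians, peak numbers and width fits were also run without it. Counts of markers, partner genes, promoter windows, single gene ends and regions called in 1 treatment only were not. A site with no peak was not called, which does not show that it was closed. The label was set against marker genes, beside the 65.3% of all protein-coding genes with a gene-end peak in every library. All 8 epithelial markers, among them Cdh1, Epcam and Krt8, had one in every library, and so did 7 of 10 principal cell markers, among them Aqp2, a share near that of all genes. Avpr2, which encodes the V2 receptor, and Aqp3 had one in 2 libraries each. The same was true in every library of 6 of 10 neuronal markers, 2 of 6 proximal tubule markers and 3 of 9 markers of endothelium, stroma and leukocytes, so gene-end peaks stood at markers of several cell types in these lists.

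The annotated promoters of 4 members are printed from RefSeq (GRCm38.p6) because they differ in CpG content and in how far called peaks cover them: Vamp8 (chr6:72390668-72390917, minus strand), Snap23 (chr2:120567421-120567654, plus strand), Stx1a (chr5:135023232-135023481, plus strand) and Snap91 (chr9:86880735-86880958, minus strand). Each run begins 250 bases before the annotated start, stops where the gene model begins, and has its CpG dinucleotides in capitals.
Vamp8: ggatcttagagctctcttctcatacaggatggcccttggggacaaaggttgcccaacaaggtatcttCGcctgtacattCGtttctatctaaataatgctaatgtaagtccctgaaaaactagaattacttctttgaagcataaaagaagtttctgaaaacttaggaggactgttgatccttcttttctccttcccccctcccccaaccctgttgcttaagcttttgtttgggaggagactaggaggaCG
Snap23: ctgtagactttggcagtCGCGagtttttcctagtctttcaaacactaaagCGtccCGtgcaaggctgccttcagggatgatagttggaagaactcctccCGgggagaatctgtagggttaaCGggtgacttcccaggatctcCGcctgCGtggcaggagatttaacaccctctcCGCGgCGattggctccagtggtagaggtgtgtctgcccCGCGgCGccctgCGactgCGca
Stx1a: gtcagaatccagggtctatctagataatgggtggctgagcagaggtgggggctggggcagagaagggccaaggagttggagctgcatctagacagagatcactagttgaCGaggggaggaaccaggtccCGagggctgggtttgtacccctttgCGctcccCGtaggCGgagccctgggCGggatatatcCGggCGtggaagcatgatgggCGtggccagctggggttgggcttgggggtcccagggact
Snap91: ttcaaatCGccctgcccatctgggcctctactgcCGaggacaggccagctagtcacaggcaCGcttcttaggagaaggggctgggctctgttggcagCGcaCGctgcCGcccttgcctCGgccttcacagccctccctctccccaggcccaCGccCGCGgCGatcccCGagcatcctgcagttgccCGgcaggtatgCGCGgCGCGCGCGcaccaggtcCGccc
The Vamp8 stretch holds 3 CpGs, the Stx1a stretch 9, the Snap23 stretch 16 and the Snap91 stretch 20. Called peaks covered all 250 bases of the Vamp8 stretch in each of the 4 libraries. Of the 250 bases of Stx1a, 240, 240, 250 and 250 lay under a peak. The 234 bases of Snap23 were covered over 215, 197, 200 and 164 bases. At Snap91 the peaks covered 168, 101, 64 and 0 of 224 bases, so the CpG-richest of the 4 stretches had the least peak cover.

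A gene end was called open in a library when a peak overlapped the window of 1 kb around either outermost end of the gene by 1 bp or more. In every library 41 of the 45 members were open (91.1%), against 65.3% of 21785 protein-coding genes. The general members were open in all 4 libraries at 35 of 37 genes (94.6%) and the neuronal members at 6 of 8 (75.0%). By location of the protein, 8 of 9 plasma membrane members, 11 of 11 members of endosomes, lysosomes and the trans-Golgi network, 10 of 11 members of the endoplasmic reticulum and Golgi, and 5 of 5 non-neuronal syntaxin-binding proteins were open in all 4, as was Vamp9, which was in no list. Per library, 45, 42, 42 and 42 members were open. The counts without vehicle 1 were again 35 general and 6 neuronal members. The neuronal set has only 8 genes, so the 2 shares are set side by side and no difference is claimed.

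**Figure D1:**
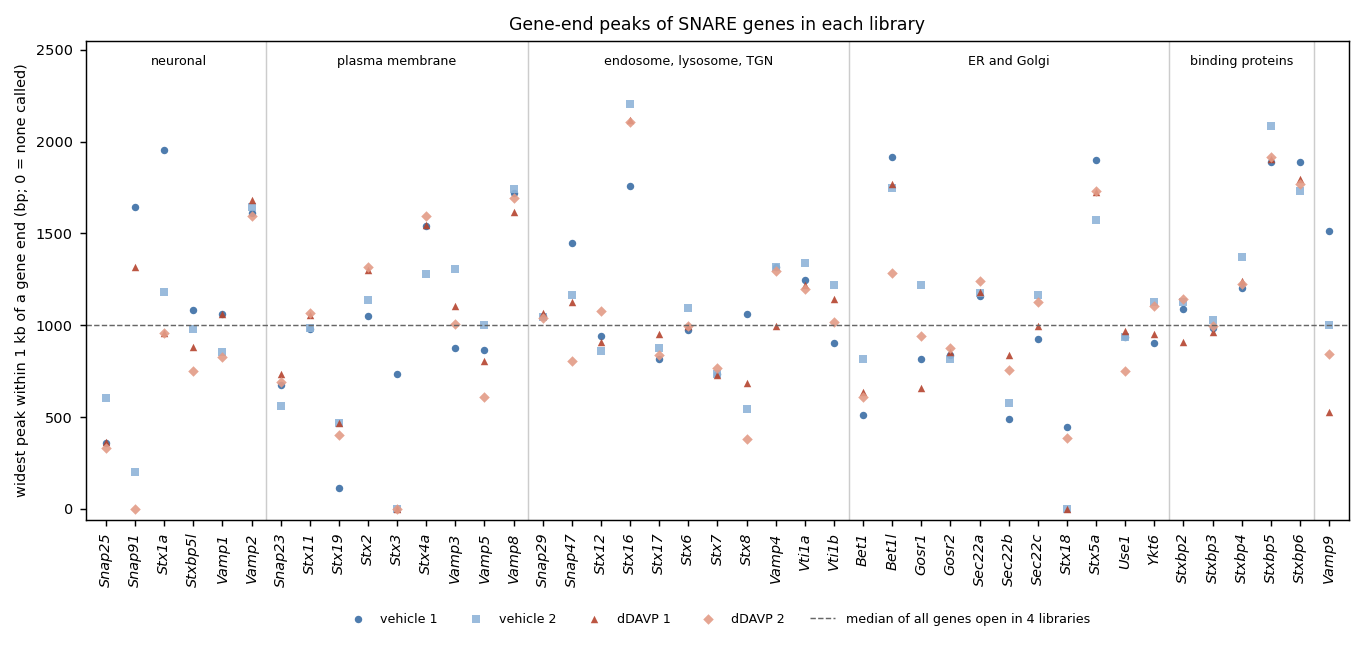
Width in bp (y axis) of the widest called peak within 1 kb of a gene end for each of 43 members (x axis), 1 symbol per library, grouped by the role of the protein; 0 means that no peak was called. Stx3 has a value above 0 in vehicle 1 only, while most other members sit near or above the dashed line at 1001 bp, the median over all genes open in 4 libraries.

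The neuronal set divided into members with broad peaks in every library and members with thin or missing ones. Vamp2 (chr11:69088528-69092381), the vesicle SNARE of synapses that is also studied on aquaporin-2 vesicles, had gene-end peaks of 1611, 1646, 1680 and 1598 bp. Their SD over the 4 libraries was 36.9 bp, and the vehicle and dDAVP values overlapped.
Vamp1, the other synaptobrevin, had peaks of 1059, 857, 1060 and 829 bp. Stxbp5l, which encodes tomosyn-2, an inhibitor of SNARE assembly, had 1081, 980, 884 and 752 bp, and both dDAVP values lay below both vehicle values. Stx1a (chr5:135023482-135051100), a syntaxin of the presynaptic membrane, had 1954, 1181, 957 and 956 bp. In the 2 vehicle libraries the widest Stx1a peak lay at the far end of the gene, and at the annotated start itself the widths were 840, 864, 957 and 956 bp.
Snap25 (chr2:136713439-136782428), a SNARE of the presynaptic membrane, had narrower peaks of 358, 603, 364 and 330 bp. At Snap91 (chr9:86765923-86880734) the widest peak measured 1646, 201, 1315 and 0 bp, wide in both replicates 1 and short or missing in both replicates 2. Vamp2 and Snap25, whose proteins act together at synapses, thus lay far apart in peak width, and these neuronal members had no common pattern.

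Among the plasma membrane members, Vamp8 (chr6:72385221-72390667), or endobrevin, a vesicle SNARE of regulated secretion in epithelia, had peaks of 1720, 1743, 1618 and 1694 bp. Snap23 (chr2:120567655-120601255), the widely expressed relative of Snap25, had 673, 562, 733 and 692 bp. Stx4a (chr7:127840643-127850988), the table's symbol for syntaxin 4, had 1542, 1281, 1544 and 1596 bp. The 3 genes were open in every library, and the Snap23 peak was narrower than the other 2 in each of them. At Snap23 and Stx4a both dDAVP values lay above both vehicle values, and at Vamp8 both lay below. At Stx4a the gap was only that from 1542 bp in vehicle 1 to 1544 bp in dDAVP 1. The share of all genes with widths separated in this way was not counted. Such orderings, here and at other members, are therefore described without reading an effect of dDAVP from them.
Stx2, an epithelial syntaxin, had peaks of 1051, 1136, 1303 and 1317 bp, so that its dDAVP values lay above its vehicle values. Vamp3, or cellubrevin of recycling endosomes, had 877, 1306, 1105 and 1005 bp, and Vamp5, known from muscle, had 863, 1004, 806 and 607 bp. The vehicle and dDAVP values of Vamp3 overlapped, and those of Vamp5 did not.
Stx11, which is best known from the granules of cytotoxic lymphocytes, had peaks of 981, 986, 1056 and 1066 bp, again with both dDAVP values above. Stx19 had 114, 467, 470 and 405 bp. Stx19 lies inside Arl13b, so its peaks cannot be assigned to either gene. Another gene has an end within 1 kb of an end of Snap29, Snap47, Stx8, Vti1a, Vti1b, Bet1l, Stx18, Stx5a and Stxbp4. Vamp3 overlaps Gm38529. Gene-end peaks shared with a neighbour cannot be assigned to a single gene, and all these members stay in the counts.

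Stx3 (chr19:11775118-11821569), the syntaxin of the apical membrane, showed how the choice of window can miss an open start. Within 1 kb of its outermost ends there was a peak of 735 bp in vehicle 1 only, at the end away from the start and within 1 kb of the end of Mrpl16. Its annotated start lies 2166 bp inside the outermost end, and there each library had a peak, of 1192, 1054, 1135 and 1115 bp, which began -5, 201, 22 and 91 bp from the start in the direction of the gene. Stx18 (chr5:38036729-38137770), a syntaxin of the endoplasmic reticulum, had gene-end peaks of 446 bp in vehicle 1 and 388 bp in dDAVP 2 and none in the others. Its annotated start lies 2501 bp inside, with peaks of 1030, 724, 686 and 1082 bp there. Both general members that missed the count of 35 therefore had a peak within 1 kb of their annotated start in all 4 libraries, which at Stx3 covered the start itself in vehicle 1 only.
Counted around annotated starts, which were available for 40 of the 46 members, 36 of 36 general members had a peak within 1 kb of a start in every library, against 64.5% of 17491 genes with an annotated start. In the narrower promoter window of 250 bases before to 50 after a start, 35 of 36 general members had a peak in every library, against 57.4% of all genes, and Stx3 was the exception. Of the 4 neuronal members with an annotated start (Stx1a, Vamp1, Stxbp5l and Snap91), 3 were open by either count. Snap91 was the exception: in dDAVP 2 the nearest peak began 1010 bp past the start.

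**Figure D2:**
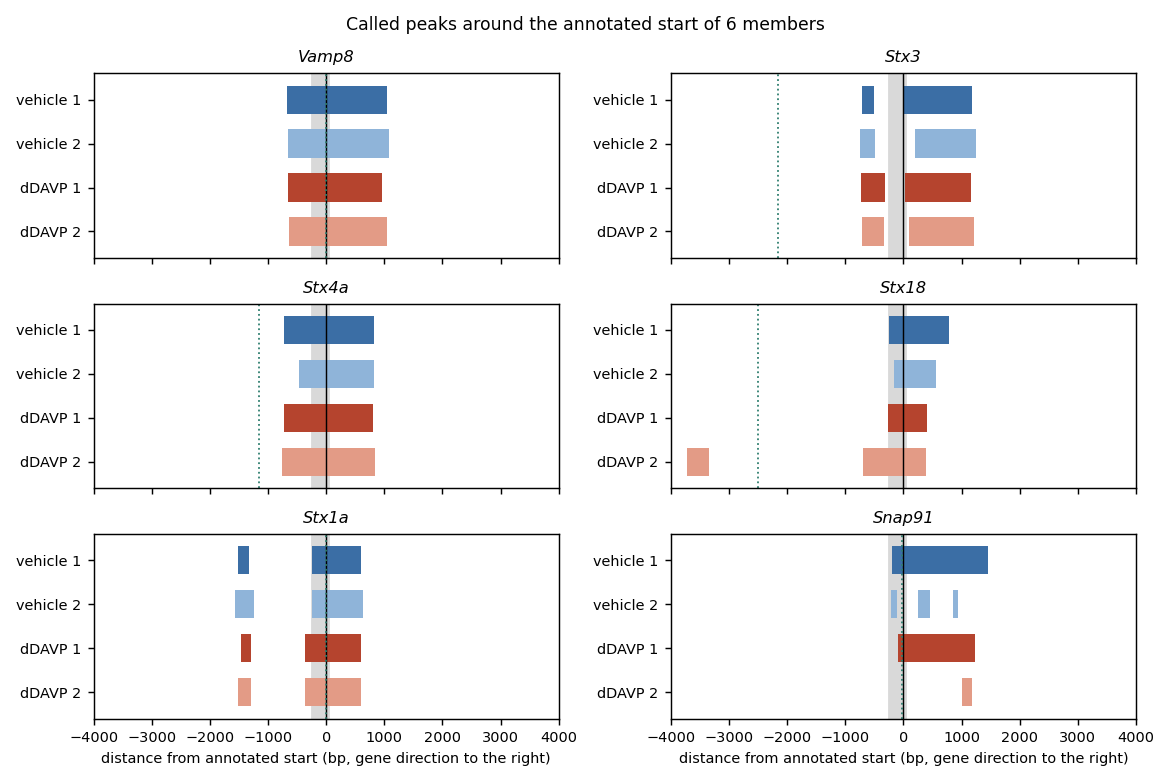
Called peaks (bars) around the annotated start of 6 members, with distance from the start in bp on the x axis and 1 row per library; the shaded band is the promoter window, the solid line the start and the dotted line the outermost gene end. Stx3 and Stx18 have peaks within 1 kb of the start in all 4 libraries although their outermost end lies 2166 and 2501 bp away, and Snap91 has a wide peak in vehicle 1 and dDAVP 1 only.

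The syntaxin-binding proteins outside the neuronal set were open in every library. Stxbp2, or Munc18-2, the partner of syntaxin 3 at apical membranes, had gene-end peaks of 1091, 1129, 909 and 1145 bp. Stxbp3, or Munc18c, the partner of syntaxin 4, had 985, 1031, 962 and 997 bp. Stxbp4, or Synip, which binds syntaxin 4, had 1204, 1371, 1243 and 1226 bp. In these 3 genes the vehicle and dDAVP widths overlapped.
Wider peaks stood at Stxbp5, or tomosyn, with 1888, 2086, 1905 and 1919 bp, and at Stxbp6, or amisyn, with 1890, 1733, 1797 and 1772 bp. Only Stx16, a syntaxin of the trans-Golgi network (chr2:174076260-174099771), had a larger mean width, 2045 bp, from values of 1756, 2203, 2117 and 2105 bp. For the 11 members of endosomes, lysosomes and the trans-Golgi network the mean width ranged from 669 bp at Stx8 to 2045 bp at Stx16. The 10 open members of the endoplasmic reticulum and Golgi ranged from 644 bp at Bet1 to 1731 bp at Stx5a. The median of the mean widths was 1050 bp for open general members, 1107 bp for open neuronal members and 1001 bp for all open genes. The widths of general and neuronal members thus overlapped.

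Sequence around the starts was compared over the 250 bases before each annotated start. The median number of CpGs was 16 over the 43 windows of general members and 11.5 over the 4 windows of neuronal members, against 10 over all 21262 windows. Over all genes, windows with a peak in 4 libraries held a median of 17 CpGs and windows with a peak in none held 2. Vamp8, with 3 CpGs and a peak in 4 libraries, stood well below that median, as did Stx19 with 3. At Stxbp5 there were 40 CpGs, the most of any member.
The cAMP response element TGACGTCA, to which CREB binds, was searched on both strands because dDAVP acts through cAMP. It was present in the windows of Stxbp3 (chr3:108840583-108840630, minus strand) and Gosr2 (chr11:103697920-103697967, minus strand), whose stretches are printed with the element in capitals.
Stxbp3: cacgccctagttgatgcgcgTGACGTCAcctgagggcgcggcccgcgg
Gosr2: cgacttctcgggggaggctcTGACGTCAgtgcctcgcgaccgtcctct
The element begins 108 bases before the annotated start of Stxbp3 and 224 bases before that of Gosr2, which encodes a SNARE of transport to and through the Golgi. In all 4 libraries, vehicle included, a called peak covered all 48 bases of each stretch. Among member windows 2 of 47 held the element (4.26%), against 2.23% of all windows. Its core TGACG, which is part of it, was in 29.8% of member windows against 23.6% of all. The GC box GGGCGG was in 66.0% against 46.2%, CCAAT in 42.6% against 38.2%, the E-box CACGTG in 8.51% against 7.84%, the AP-1 motif TGANTCA in 6.38% against 6.99% and the ETS motif CCGGAAGT in 6.38% against 5.15%. The NRF1 motif was in 3 windows, those of Snap23, Stx12 and Stxbp5 (6.38% against 1.33%). No member window held the CLEAR motif (0.419% of all), the left part of the RE1 element, TTCAGCACC (0.414%), or its right part (0.183%). RE1 is the site of REST, a repressor of neuronal genes. These matches describe letters in the windows and not bound sites.

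To look beyond the gene ends, peaks of all libraries that overlapped were merged into regions, and regions with a peak in every library were counted in each gene and 50 kb to either side. The median was 9 such regions for general members and 9.5 for neuronal members, against 6 for all genes. Per 100 kb, which takes gene length into account, the medians were 5.64, 4.88 and 4.70. Against the median number of regions of genes on the same chromosome, not scaled to length, 17 general members had more and 17 fewer. Of the neuronal members, 6 had more and 2 fewer. Per 100 kb, 17 general and 5 neuronal members lay above the median of their chromosome. After leaving out regions within 1 kb of any gene end, the medians were 5 for general members, 5 for neuronal members and 4 for all genes. Inside the gene itself the median was 2 for general and 1 for neuronal members, against 1 for all genes.
Vti1a (chr19:55316030-55627461), a SNARE of the trans-Golgi network and endosomes, had 56 regions within 50 kb, and 45 of them lay inside its 311432 bp. Scaled to 100000 peaks of each list, its peak numbers were 52.5, 63.3, 55.6 and 63.2. Stx5a (chr19:8741424-8755642), the syntaxin of the Golgi, had 21 regions and peak numbers of 8.63, 15.9, 9.61 and 12.6. The scaled numbers of both genes were higher in both replicates 2 than in both replicates 1. Vamp2 and Stx3 had 18 regions each, and Stx1a and Stxbp6 had 16 each. At the other end, Snap25, Snap91, Stx17, Vamp3 and Bet1 had 2 each. Per 100 kb, Stx5a (18.4) and Vamp2 (17.3) were highest and Snap91 (0.931) lowest, so the neuronal members lay at both ends of the range.
Wide regions also lay inside genes away from their ends. Vti1a held a region of 2083 bp at chr19:55452671-55454753, Stx3 one of 1301 bp at chr19:11782555-11783855 and Stxbp3 one of 1718 bp at chr3:108816274-108817991. The gene table gives no exons, so these were not placed in exons or introns. The windows of Vamp5 and Vamp8 overlap and share regions.

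**Figure D3:**
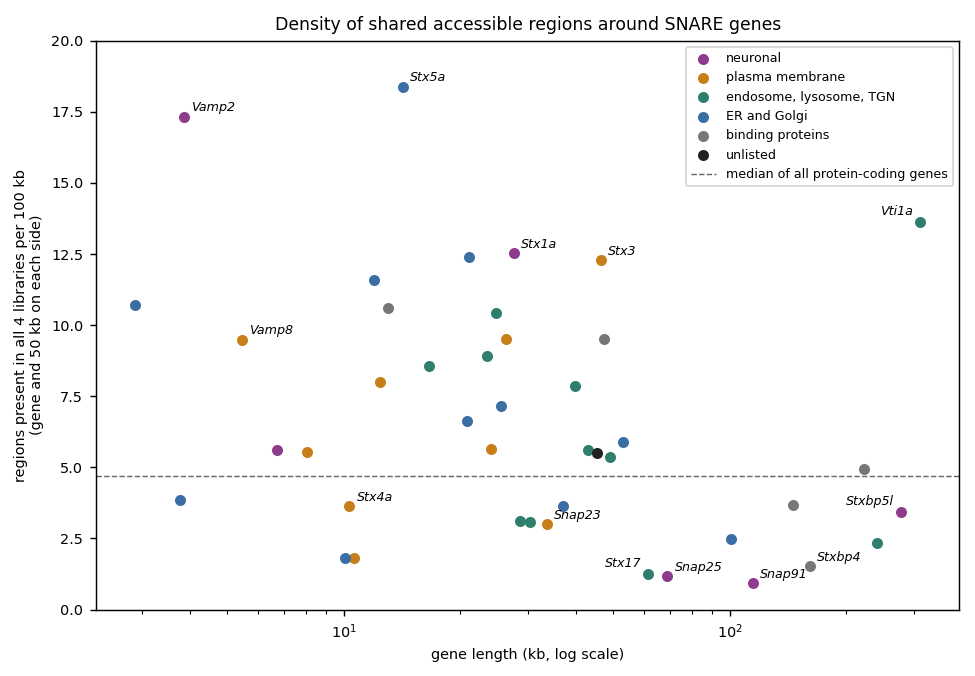
Number of regions with a peak in all 4 libraries per 100 kb of gene and flanks (y axis) against gene length in kb on a log scale (x axis), 1 point for each of 43 members, coloured by role. Stx5a and Vamp2 lie highest at 18.4 and 17.3 per 100 kb, Snap91 lowest at 0.931, and the dashed line marks the median of all genes, 4.70.

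Treatment was compared first by presence. Counting both ends of a gene as a unit, no member was open in the 2 dDAVP libraries and without a called peak in the 2 vehicle libraries. All 45 members were open in vehicle 1, so none could show this pattern, which was found at 46 of 21785 genes (0.211%). No member showed the reverse pattern over both ends, found at 189 genes (0.868%). Taking either end alone, 2 of 45 members (4.44%) had a dDAVP-only peak at an end, against 1.03% of genes: Stx6, a syntaxin of the trans-Golgi network, with peaks of 335 and 316 bp just outside its far end at chr1:155208027-155208609, and Vamp8, with 112 and 244 bp at the end away from its start. A vehicle-only peak at an end was found at 4 members (8.89%), Stx11, Sec22b, Stxbp6 and Snap47, against 2.86%. Over both ends, each of these 6 genes was open in every library. The peaks in the windows around members merged into 2457 regions, of which 41 (1.67%) were called in dDAVP libraries only, each time in both, against 1.61% of 560228 regions in the genome. In the reverse direction there were 85 (3.46%), against 3.35%. The members' shares were thus close to those of the genome in both directions.
Inside the genes lay 936 regions, of which 12 (1.28%) were called in both dDAVP libraries only, against 1.55% of 265681 regions inside protein-coding genes. Another 35 (3.74%) were called in both vehicle libraries only, against 3.36%. The former lay in 7 of 45 members (15.6%), against 12.9% of genes, and the latter in 15 (33.3%), against 21.3%. The median length was 27619 bp for members and 17203 bp for all genes. Whether length bears on these shares was not tested. Stxbp6 held 4 dDAVP-only and 5 vehicle-only regions, and Vti1a 1 and 8. The dDAVP-only region inside Vti1a lay at chr19:55520784-55521486, with peaks of 694 and 150 bp. Vamp8 held 1 dDAVP-only region, at chr6:72385381-72385694 near the far end of the gene, with peaks of 112 and 244 bp. Near Vamp2, outside the gene, 2 such regions were found, the wider at chr11:69080387-69081027 with peaks of 454 and 255 bp. The widest dDAVP-only region around any member lay 19523 bp from Gosr1, at chr11:76705959-76707079, with peaks of 1121 and 86 bp. Apart from the peak of 1121 bp near Gosr1, each of these peaks was narrower than the widest gene-end peak of the same gene in the same library.

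Peak numbers within 50 kb of each gene, scaled to 100000 peaks of each list, gave the next comparison. With 2 libraries against 2, an exact permutation test cannot give a two-sided p below 0.3333. In 6 of 45 members both dDAVP values lay above both vehicle values (Stx17, Vti1b, Bet1, Gosr1, Use1 and Stxbp3), against 13.3% of all genes. By unscaled peak numbers this held at 0 members, so all 6 calls depend on scaling to list length. In 5 both lay below (Stx2, Snap47, Stx16, Bet1l and Stxbp6), against 9.26%, and by unscaled numbers in 3. The ratio of dDAVP to vehicle means had a median of 1.01 over members, with a range of 0.752 to 1.44, and of 1.02 over all genes. The members' counts were near the background in both directions.
At Gosr1, a Golgi SNARE, the scaled numbers were 9.14, 6.28, 11.3 and 9.72, a ratio of 1.36 with exact p = 0.3333 (n = 2 and 2). At Stxbp3 they were 18.3, 16.4, 19.9 and 19.9, a ratio of 1.15 with exact p = 0.3333, and unscaled the Stxbp3 ratio was 0.934. At Stx2 they were 9.39, 9.18, 8.92 and 7.29, a ratio of 0.873 with exact p = 0.3333, and within 20 kb the Stx2 ratio was 1.01. The largest ratio, 1.44 at Stx17, the syntaxin of autophagosomes, rested on 3, 2, 3 and 3 peaks. For Stxbp3 and Stx2 the direction therefore depended on the scaling or the window.

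Width was the only quantity of a peak that could be tested across all genes. For 14215 genes open in all 4 libraries, log2 width of the widest gene-end peak was compared between dDAVP and vehicle with limma after quantile normalization and Benjamini-Hochberg adjustment. No gene had an adjusted p under 0.05 (0% called), and 576 genes (4.05%) had an unadjusted p under 0.05. None of the 41 members tested passed either threshold, and the lowest adjusted p by limma was 0.9945 over all genes and 0.9997 over members. The estimate was above 0 at 21 members and below 0 at 20, with a median of 0.01 on the log2 scale, against 0.02 over all genes. This even split depended on the libraries used. Without vehicle 1 the estimate was above 0 at 13 members and below 0 at 28, with a median of -0.14, against -0.014 over all genes. Without vehicle 2 it was above 0 at 26 and below 0 at 15, with a median of 0.055, against 0.048.
Intervals are given for the members named above as studied in aquaporin-2 transport and tested here, and for Vamp8. The log2 width of Snap23 was 9.25 in vehicle and 9.48 in dDAVP libraries on average, a difference of 0.23 (SE 0.093, 95% interval -0.048 to 0.52). Stx4a differed by 0.18 (SE 0.13, -0.22 to 0.58; 0.30 without vehicle 1 and 0.056 without vehicle 2), Vamp8 by -0.052 (SE 0.095, -0.34 to 0.24) and Vamp2 by 0.029 (SE 0.098, -0.27 to 0.33). Stxbp2 differed by -0.12 (SE 0.17, -0.65 to 0.40). Each of these intervals includes 0.
The largest estimates in size were those of Stx19, 1.00 (SE 0.95), Vamp9, -0.93 (SE 0.40), Sec22b, 0.69 (SE 0.28), and Stx1a, -0.67 (SE 0.29). Without vehicle 1 the estimate was 0.38 at Sec22b and -0.32 at Stx1a, without vehicle 2 it was -0.998 at Stx1a, and without dDAVP 1 it was -0.52 at Vamp9. Sec22b, a SNARE between the endoplasmic reticulum and Golgi, had widths of 487, 577, 840 and 754 bp, so both dDAVP values lay above both vehicle values. For Stx1a the difference turned to 0.17 when all bases under peaks in the gene-end windows were counted in place of the widest peak. In simulated data with known changes, the fit called 0% of genes changed by 1 on the log2 scale, 5% of those changed by 2 and 31.2% of those changed by 3, with 0 false calls. A change of the size estimated at any member was therefore not detectable with these libraries.

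**Figure D4:**
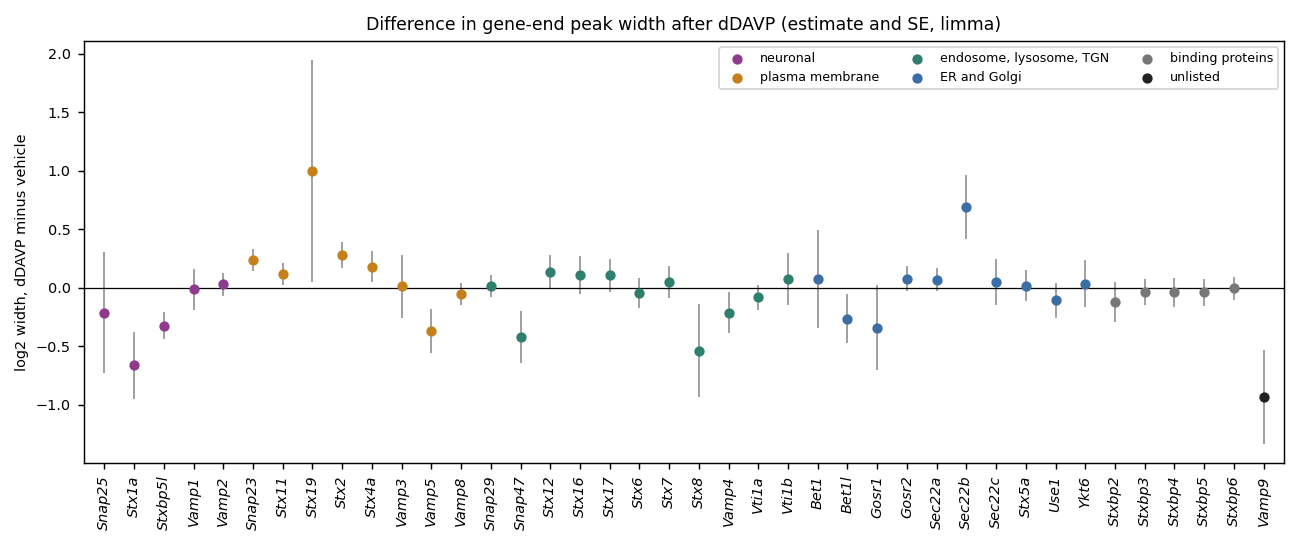
Difference in log2 width of the widest gene-end peak, dDAVP minus vehicle (y axis), for 40 of the 41 members open in all 4 libraries (x axis), with bars of 1 SE from limma and colours by role. Most estimates lie near 0, and those of Stx19 (1.00) and Vamp9 (-0.93) are farthest from it and have wide bars.

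Genes that work with the SNAREs were scored the same way from lists of their complexes. Beside them stand the 65.3% of all protein-coding genes open at a gene end in every library. All 4 genes of NSF and its SNAP adaptors (Nsf, Napa, Napb and Napg), which take spent SNARE bundles apart, were open at a gene end in every library. So were 5 of 5 other Sec1/Munc18 genes and 7 of 7 genes specific to the HOPS and CORVET tethers of endosomes and lysosomes. Of the exocyst, the tether of vesicles at the plasma membrane, 7 of 9 (77.8%) were open in all 4, and Exoc3 and Exoc6 were not. By the promoter window, 9 of 9 exocyst genes were open in all 4, against 57.4% of all genes. Of 19 genes of calcium-triggered release, 13 were open at a gene end in all 4, among them Syt1, Cplx1 and Unc13a. Their share of 68.4% was near that of all genes. Only 5 of the 14 with an annotated start had a peak in the promoter window in every library, and 11 of 14 within 1 kb of a start. The share of release genes was thus 35.7% by the narrow window, against 57.4% of all genes, and 78.6% by the wide one, against 64.5%.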

How the data were processed

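ATAC-seq peak lists of 4 libraries were used. Per the submitters' processing notes the build was mm10 and the tools were MACS2, Bowtie2, Picard, cutadapt, SAMtools and bedtools, without versions or settings. How duplicates were handled, whether reads were shifted for the transposase and which peak threshold was used is not given in the sources used here. For each sample, the authors deposited 1 list with chromosome, start and end and no other values, so positions and widths in bp are the only measurements, and a more deeply sequenced library can yield more and wider peaks. Treatment and replicate number came from the sample titles.

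Gene positions and promoter sequences came from RefSeq tables of assembly GRCm38.p6 (mm10). Of 21883 protein-coding genes on the autosomes, X and Y, 98 were left out. They end before position 689612, the first peak of any list on these chromosomes. The gene table gives no strand or exons. Promoter entries were matched by symbol for 40 of 46 members (47 of 21262 windows). Coordinates are 1-based.

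The members, their division by role and the lists of markers and complexes were chosen with earlier results of these data known, so lists are described by counts and medians without a test. Values per library are given for the neuronal, plasma membrane and Stxbp members, members not open in all 4 libraries, the 3 with most regions within 50 kb and the 3 with the widest gene-end peaks. Members named for a treatment ratio, a width difference, a motif or a region were chosen after their values were seen. Some items that the rule takes enter the counts and medians and are not reported here by name or in the figures.

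Windows of 1 kb and 50 kb and an overlap of 1 bp were used. Widths were fitted with limma 3.58.1 in R 4.3.3, with Benjamini-Hochberg adjustment at 0.05. Peak numbers were scaled to 100000 and compared by two-sided exact permutation tests. Other steps used Python 3.11.15, numpy 2.4.6, pandas 2.3.3 and scipy 1.17.1. The interval functions and the fit were tested on simulated data, the fit with 14215 genes. Alternatives were other windows, overlaps, merging distances and lists of equal length (the widest 205771 peaks), other assignments of Vamp2, Stxbp5, Stxbp6 and Snap91, raw numbers, other measures and scalings of width, a replicate block and leaving out each library. Windows around annotated starts, gene ends taken singly and regions outside gene ends were added after seeing the data.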

Additional observations from a re-analysis of the deposited data

How the results depend on the processing

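With the 2 classes unchanged, 34 to 37 general and 5 to 7 neuronal members were open at a gene end in all libraries used. With Stxbp5 and Stxbp6 counted as neuronal the numbers were 33 and 8, and with Vamp2 counted as general 36 and 5. A peak in any library, a looser count, was found at 37 and 8. Around annotated starts 3 of the 4 neuronal members with an entry were open, and in the promoter window also 3. With both ends counted as a unit, no alternative gave a member with gene-end peaks in dDAVP libraries only. In the main count none was possible, because all 45 members were open in vehicle 1. With either end taken alone, 2 members had a dDAVP-only peak and 4 had a vehicle-only one. A vehicle-only peak was found at 1 member (Snap25) with a window of 0.5 kb, and at 0 to 2 members when 1 library was left out: 2 without vehicle 2, among them Stx3, and Snap91 without dDAVP 1. The median number of regions for general and neuronal members was 5 and 6 within 20 kb, 16 and 17.5 within 100 kb, and 5 and 5 outside gene-end windows.

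Members with higher peak numbers after dDAVP were 6, with 0 by raw numbers. Leaving out 1 library gave 12 to 18 (14 without vehicle 1, 18 without vehicle 2, 18 without dDAVP 1, 12 without dDAVP 2). Members with lower numbers were 5, with 3 by raw numbers, 3 within 20 kb and 2 within 100 kb, and 11 to 14 with 1 library left out (14, 12, 11 and 13 in the same order). A group of 1 library overlaps the other less often by construction. Direction by peak number was followed at Stxbp3, Gosr1, Stx2 and Stxbp6 only. Direction by width was followed at Snap23, Stx2, Stx4a, Vamp8, Vamp2, Stx1a, Sec22b and Vamp9 only. Among these it turned for Stxbp3 by raw numbers (0.934), Stx2 within 20 kb (1.01) and Vamp8 and Stx1a by covered length (0.15 and 0.17). It also turned for Vamp2 without dDAVP 1 (-0.012), where leaving out 1 library gave -0.012 to 0.067. The cause was not tested.

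With replicate number as a block, 14 members were higher and 10 lower in both pairs, against 31.9% and 17.2% of all genes. The width fit with the block called 0 genes (748 at an unadjusted p under 0.05) and 0 members, with 1 member at an unadjusted p under 0.05. With median centring 1 member was also under that unadjusted p by limma. Member counts at that p are not given here for fits with 1 library left out. The labels do not say that numbers pair libraries, and the replicate differences of the vehicle and dDAVP libraries correlated at 0.18 across 14215 genes. The width fit called 0 genes under every alternative run, with 510 to 1056 genes at an unadjusted p under 0.05 (1056 without vehicle 2); a group left with 1 library was assumed to vary like the other. The lists hold no counts, so depth per library is unknown and an uncalled site may be a shallow one.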

Other observations

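Vamp7, a SNARE of late endosomes and lysosomes, was not scored because its table position, 10737 to 39191, lies ahead of every peak on X. On the unlocalized scaffold of X the lists held peaks at 39048 to 39296 (vehicle 1), 39123 to 39284 (vehicle 2), 39134 to 39292 (dDAVP 1) and 39156 to 39301 (dDAVP 2). These positions include the table's end of Vamp7. The table does not name a scaffold, so the peaks were not assigned to the gene.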
